A study of Mus musculus with 14 samples.

Results

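The clustered protocadherin genes lie in 3 neighbouring families, Pcdha, Pcdhb and Pcdhg, on mouse chromosome 18. The members were the protein-coding genes of the mm9 annotation whose symbols start with one of these names, and there were 24 of them among 22359 protein-coding genes. The sites described are the peaks between 100 kb before the first and 100 kb after the last of these genes, which formed 31 regions of 108795 in the genome.

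Chromatin accessibility was measured by bulk ATAC-seq, in which a transposase inserts adapters into open DNA, in 4T1 cells, a mouse mammary tumour line. Cells were kept in normoxia, for which the labels give no oxygen level and a legend of the paper gives one lower than in air, or at 1% oxygen for 6, 12, 24, 36, 48 or 72 h and fixed there. Each of the 7 groups had 2 samples, 14 in all, and no group carried a genetic change named in the labels. The files were 7 peak lists, 1 per group, each called on the merged reads of both samples, so no value has a replicate error and no test between conditions was possible.

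Clustered protocadherins are cell surface adhesion proteins that give single neurons an identity through homophilic binding. In the Pcdha and Pcdhg families, each variable exon has a promoter of its own and is spliced to constant exons that encode a shared cytoplasmic end, whereas Pcdhb genes have no such shared end. In mouse neurons the choice of promoter involves CTCF and cohesin, DNA methylation and distal enhancers, and most variable promoters carry a conserved box with the core CGCT.

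Within the mm9 annotation the variable exons were unevenly named. Of the Pcdha exons, 10 transcripts were filed under the gene Pcdha11 and 1 under Pcdha3. All 10 Pcdhg transcripts were filed under the gene Pcdhgc5, and the Pcdhb family had 21 genes with 25 starts. The 46 annotated starts of the members were therefore supplemented with a scan of the gene span for open reading frames of 600 or more codons, the size class of a variable exon. The scan gave 62 frames on the strand of the genes against 3 on the other strand, and each of the 46 starts had a frame within 1 kb. Of the 62 frames, 22 had no annotated start within 1 kb. These are called by their order along the chromosome and were given no gene name, and a frame is not by itself evidence of a protocadherin exon.

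The 7 lists differed in size and background. They held between 49006 peaks at 6 h and 81732 peaks at 12 h. The genome background at a summit was 1.85 to 3.25 reads in hypoxia, against 0.926 reads in normoxia. At that background the fewest reads that were called as a peak were 5 in normoxia and, by rising time in hypoxia, 11, 8, 7, 8, 9 and 9. Of 9 epithelial markers, 8 (such as Epcam, Krt8 and Cdh1) had a promoter peak in all 7 lists. None of 8 neuronal markers had one in all 7, and 5 of them, including Tubb3 and Stmn2, had none in any list. The others were Snap25 in 5 lists (fold enrichment 5.71 in normoxia), Rbfox3 in 2 and Syn1 in 1.

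Most promoters of the members had no peak. A promoter peak, one within 1 kb of an annotated start, was found for 6 of the 24 genes in any list (25%, 95% exact binomial interval 9.77% to 46.7%), where 56.7% of all protein-coding genes had one. By list, in the order of normoxia and then 6 to 72 h, 1, 1, 3, 5, 3, 3 and 3 members had a promoter peak, which is between 4.17% and 20.8% of them. Over all genes this share was 50.2% in normoxia and 49%, 53.4%, 51.8%, 51.8%, 52.2% and 50.2% at the 6 times. The members' share was below that of all genes in each of the 7 lists, and it was highest at 24 h. The list at 24 h also had the lowest background of the hypoxia lists, 1.85 reads, and the lowest number of reads called as a peak, 7, and the part of these in the count was not tested.

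**Figure D1:**
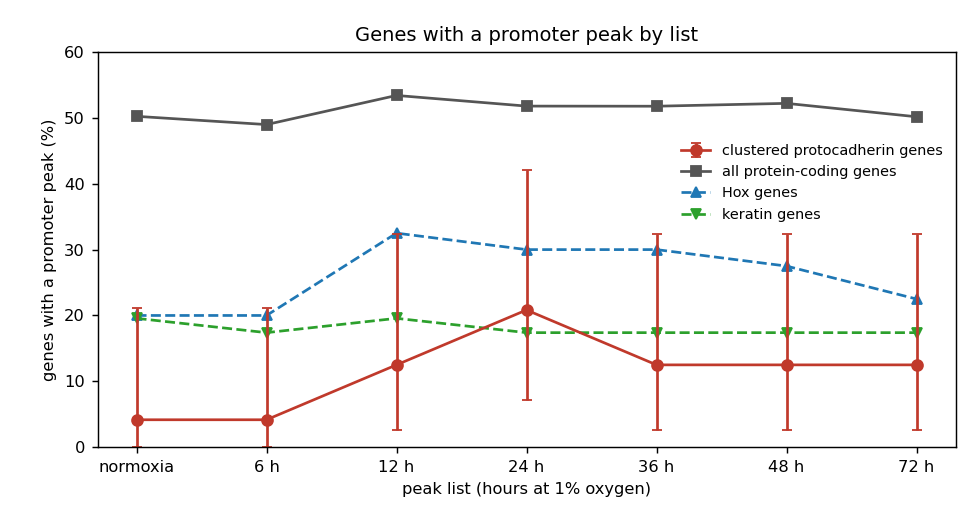
Share of genes with a promoter peak (%) in each peak list for the 24 clustered protocadherin genes (red, bars are 95% exact binomial intervals over genes), all 22359 protein-coding genes (grey), 40 Hox genes (blue) and 46 keratin genes (green). The members' share ran between 4.17% and 20.8% and lay under that of all genes in every list.

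The other tandem families set beside them were also below the genome. Of 40 Hox genes, which encode homeodomain transcription factors, 8, 8, 13, 12, 12, 11 and 9 had a promoter peak in the same order of lists. Of 46 keratin genes, which encode intermediate filament proteins, between 8 and 9 did. In all 7 lists a promoter peak was held by 1 member (4.17%), 8 Hox genes (20%) and 8 keratin genes (17.4%), against 45.9% of all genes.

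A promoter peak in at least 1 hypoxia list and none in normoxia was found for 5 of the 24 (20.8%, interval 7.13% to 42.2%), against 6.42% of all genes. These were Pcdhb8, Pcdhb14, Pcdhb16, Pcdhb17 and Pcdhb21. Since normoxia is 1 list and hypoxia 6, and 23 members had no promoter peak in normoxia, a member could hardly differ in the other direction. Of those 23, the 5 were 21.7% (interval 7.46% to 43.7%), against 12.9% of the 11127 genes of the annotation without a promoter peak in normoxia, and that background lies inside the interval. Pcdhgc5, the 1 member with a normoxic promoter peak, kept it in every list, so 0 members lost one, against 4.32% of all genes. The corresponding counts of genes with a peak in hypoxia and none in normoxia were 5 of 40 Hox genes (12.5%, or 15.6% of the 32 without a normoxic peak) and 0 of 46 keratin genes. Taken 1 list at a time, 0, 2, 4, 2, 2 and 2 members had a promoter peak that normoxia lacked, shortest time first. Over all genes these shares were 1.51%, 3.71%, 2.73%, 2.85%, 3.04% and 2.32%. The intervals treat genes as independent, and neighbouring members share a stretch of chromosome.

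Peaks of the gene span that were not in every list were shallow. Outside the 1 promoter open in all lists and the promoter of Taf7, the gene span held 18 regions with 38 calls among the 7 lists. Of these regions, 3 were called in normoxia and 15 in hypoxia alone. Their summits had between 5 and 26 reads with a median of 12, and fold enrichments between 2.16 and 7.48 with a median of 3.89. Fold enrichment here is the ratio of reads at the summit to the local background, each with 1 read added. The median call stood at percentile 16.1 of its own list by −log10 q. With peaks of −log10 q of 5 or more alone, 2 of the 5 Pcdhb genes were left with a peak in hypoxia and none in normoxia, and with the 20000 strongest peaks of each list none was.

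The annotated gene Pcdhgc5, under which all 10 Pcdhg transcripts were filed, was the only member with a promoter peak in all 7 lists. All 7 peaks lay at one of its 10 starts, that of transcript Pcdhgc5-208, in a region of 1400 bp (chr18:37965627-37967026, mm9) that reached from the sequence before the start into the variable exon. Its fold enrichment was 9.15 in normoxia and 8.12, 8.66, 9.33, 9.86, 8.60 and 7.84 with rising time in hypoxia. The hypoxia values of fold enrichment lay on both sides of the value in normoxia. The summit had 61 to 89 reads in the hypoxia lists, against 59 in normoxia, and these reads were not scaled between lists. Over all regions open in all lists, the median summit had 31 to 52 reads in the hypoxia lists, against 26 in normoxia. In every list this peak stood between percentiles 88.9 and 94.4 by −log10 q.

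The start belongs to frame 60, the first of the 3 last reading frames of the Pcdhg family. The start of frame 61 (Pcdhgc5-205) and those of frame 62 (Pcdhgc5-203 and Pcdhgc5-209) had no peak in any list. RefSeq, on a later build, lists Pcdhgc3, Pcdhgc4 and Pcdhgc5 as the last genes of the family. By that order frame 60 would take the place of Pcdhgc3 and frame 62 that of Pcdhgc5. The start in the place of Pcdhgc5 would then be one without a peak. The names were not transferred to the starts because the builds differ. The remaining 6 Pcdhg starts were also without a peak. Further into the same long exon there were weak separate peaks at 24 h (fold enrichment 2.16) and at 48 and 72 h (2.54 in each).

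The Pcdhb family had 5 of 21 genes with a promoter peak and none of them in normoxia or at 6 h. Pcdhb genes encode transmembrane protocadherins on a single exon. Pcdhb21 (chr18:37673109-37673561) was called most often, in 4 lists, with a fold enrichment of 3.89 at 12 h (12 reads), 3.16 at 24 h (8 reads), 5.12 at 48 h (17 reads) and 3.12 at 72 h (10 reads). It had no peak in the list at 36 h, so its calls were not an unbroken run.

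Pcdhb17 (chr18:37644414-37644776) was called in 3 lists, at 12 h (fold enrichment 4.79, 15 reads), 24 h (4.22, 11 reads) and 48 h (4.55, 15 reads). Its neighbour Pcdhb16 (chr18:37637275-37637658) was called in none of those 3 lists but at 36 h (3.11, 9 reads) and 72 h (3.69, 12 reads). Pcdhb8 (chr18:37514611-37514900) was called at 24 h (3.51, 9 reads) and 36 h (3.73, 11 reads). Pcdhb14 (chr18:37607177-37607422) was called at 24 h alone (3.87, 10 reads). No 2 of these 5 promoters were thus called in the same set of lists. The exact 95% Poisson interval of 12 reads is 6.20 to 21.0 and covers the reads of every other call at these 5 promoters. These reads were not scaled between lists. At genome background a call needed 7 to 9 reads in the lists from 12 h on. The coverage therefore cannot show that the promoters or the times were alike.

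The other 16 Pcdhb genes had no promoter peak in any list: Pcdhb1 to Pcdhb7, Pcdhb9 to Pcdhb13, Pcdhb15, Pcdhb18, Pcdhb19 and Pcdhb22. The 5 genes with a peak were spread over the family, with Pcdhb16 and Pcdhb17 next to each other and neighbours without a peak around the rest. Pcdhb3 had a region within its exon (chr18:37462697-37462981), 2244 bp past its start, that was called at 48 h (fold enrichment 4.26, 14 reads) and in normoxia (4.15, 7 reads).

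**Figure D2:**
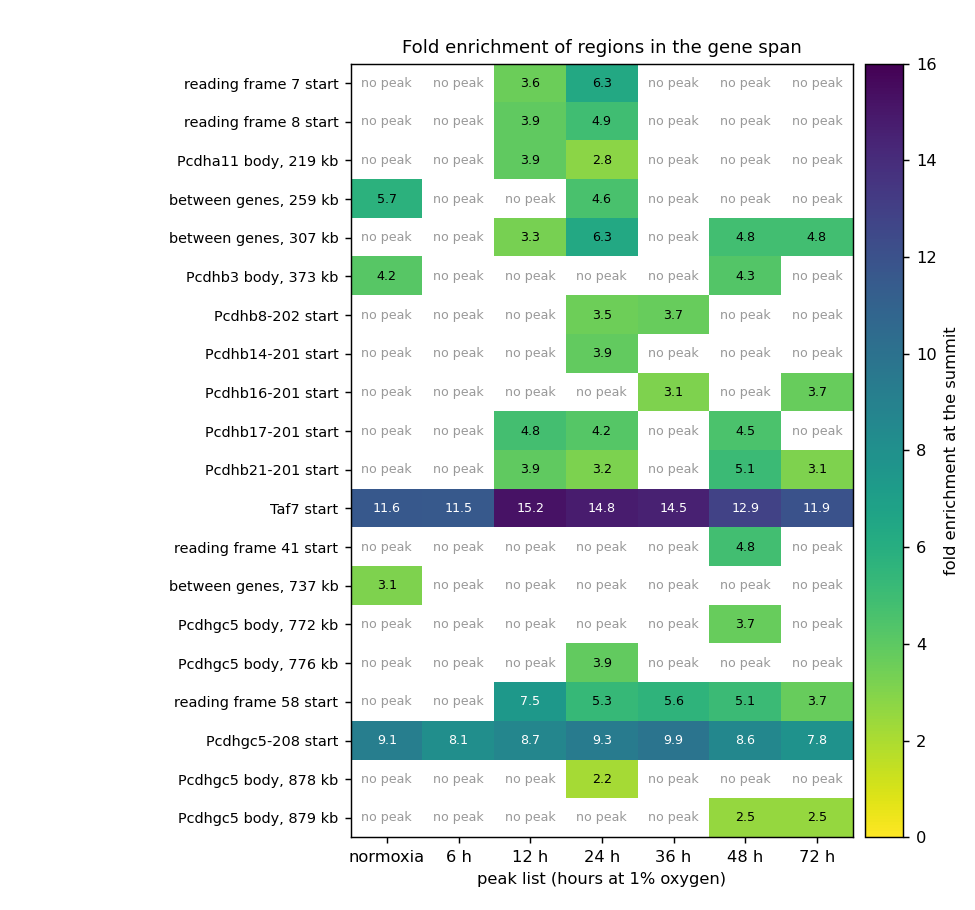
Fold enrichment at the summit of each of the 20 regions in the gene span (rows, in chromosome order, with kb from the first Pcdha start where no start is near) in each peak list (columns); cells without a value had no peak. The Pcdhgc5-208 and Taf7 starts were filled in all 7 lists, the 5 Pcdhb starts only in lists from 12 h on.

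No annotated Pcdha start had a peak in any list, so both Pcdha3 and Pcdha11 were without one. The Pcdha family did have 3 regions in its span, all called at 12 h and 24 h and in no other list. The region in frame 7 (chr18:37133813-37134174) had a fold enrichment of 3.59 at 12 h (11 reads) and 6.32 at 24 h (17 reads). The one in frame 8 (chr18:37152370-37152655) had 3.89 at 12 h (12 reads) and 4.92 at 24 h (13 reads). Both frames lay in the body of Pcdha11 and had no annotated start within 1 kb. The other region lay 5270 bp past the start of Pcdha11-202 and had 3.89 at 12 h (12 reads) and 2.81 at 24 h (7 reads).

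The Pcdhg family had 1 more recurring site, at frame 58 (chr18:37920906-37921527), whose nearest annotated start was 3707 bp away. It was called in the 5 lists from 12 h to 72 h, with fold enrichments of 7.48, 5.27, 5.59, 5.12 and 3.69 on 24, 14, 17, 17 and 12 reads. It had no peak in normoxia or at 6 h. Among the sites of the gene span without a peak in normoxia, this was the one called in most lists. Frame 41, between Pcdhb and the first Pcdhg start, was called at 48 h alone (4.83).

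Counted by reading frames in place of annotated genes, 10 of the 62 frames had a peak within 1 kb in any list, 9 of them in hypoxia and not in normoxia, and 1, frame 60, in all 7 lists. By list, 1, 1, 6, 8, 4, 5 and 4 frames had a peak. Since only 1 frame had a peak in normoxia, a frame could hardly differ in the other direction. Of all genes without a promoter peak in normoxia, 12.9% had one in a hypoxia list, and frames elsewhere in the genome were not counted. Of the 10 frames, 4 had no annotated start within 1 kb and so did not enter the counts of genes. The other 6 frames are the sites of the 6 genes with a promoter peak, so the counts of frames and genes are not independent.

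The position of the summits relative to the reading frame was alike at most of these sites. At the 5 Pcdhb genes the strongest summit lay 152, 172, 187, 242 and 306 bp before the first ATG, in the order Pcdhb21, Pcdhb14, Pcdhb8, Pcdhb16 and Pcdhb17. It lay 191 bp before it at frame 60, 311 bp before it at frame 58 and 209 bp before it at frame 41. At frames 7 and 8 of Pcdha it lay instead 433 and 399 bp past the ATG, within the frame. At Pcdhb17 the summits of the 3 lists stood 168, 72 and 5 bp before the annotated start, which shows the spread of a summit on this many reads.

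No constant exon had a peak. The exons shared by 3 or more transcripts were 3 of Pcdha11 and 3 of Pcdhgc5, and none of these 6 had a peak in any of the 7 lists. The longest of them was chr18:37344600-37347311, and the lists held 17.7 to 30.2 regions per Mb over the genome. In so short a stretch a count of 0 cannot set these exons apart. Among the 31 regions of the window, 6 were variable promoters, 9 lay elsewhere in a member's body, 2 were promoters of other genes and 14 were distal.

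**Figure D3:**
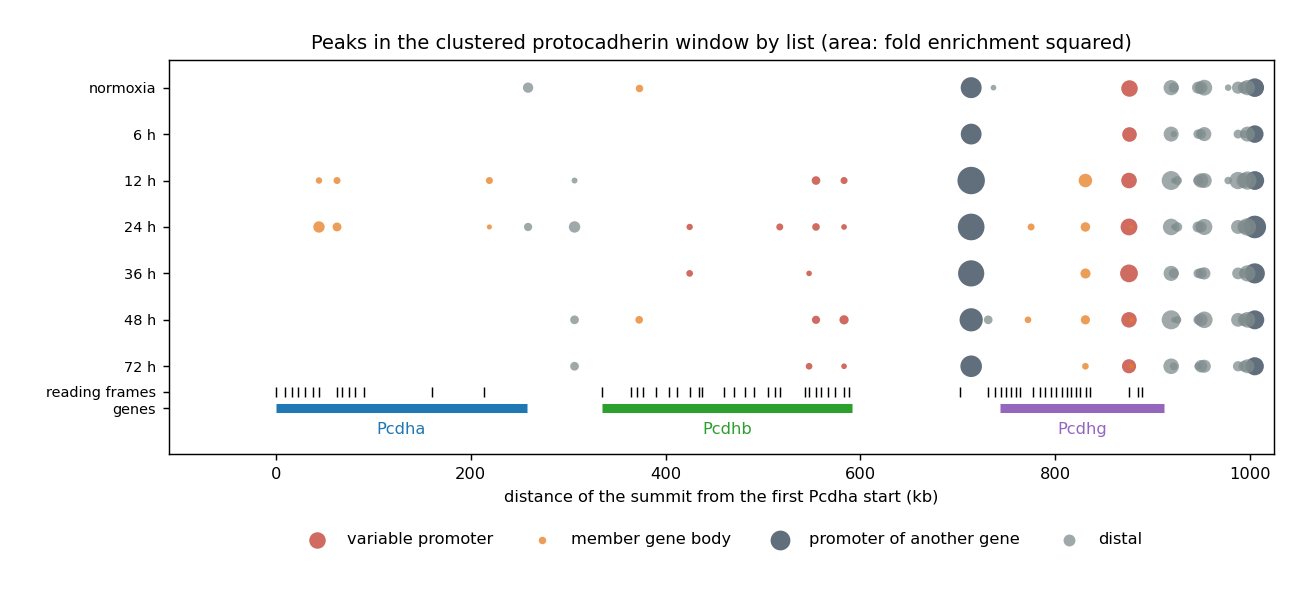
Peaks of the window by list (rows), placed by the distance of the summit from the first Pcdha start (kb), with the area of a point proportional to the square of its fold enrichment and its colour giving the class of the region; black ticks are reading frames and bars the spans of the 3 families. Points left of the large Taf7 point are most numerous at 24 h, whereas the right end holds peaks in every list.

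The gene span itself, 911.589 kb long, was sparse. In normoxia it held 5 regions, or 5.48 per Mb (exact Poisson interval 1.78 to 12.8), against 21.8 per Mb over the genome. In the hypoxia lists, shortest time first, it held 2, 9, 14, 5, 10 and 7 regions. The density was highest at 24 h with 15.4 per Mb (8.40 to 25.8), against 26.3 per Mb over the genome in that list, and lowest at 6 h with 2.19 per Mb (0.266 to 7.93), against 17.7 per Mb. Set against the genome's density in the same list, the span had 0.251 times as many regions in normoxia, 0.124 times at 6 h, 0.327 times at 12 h and 0.585 times at 24 h. At 36, 48 and 72 h these ratios were 0.241, 0.403 and 0.330. The span thus stayed below the genome in each list, and the interval at 24 h overlapped that in normoxia. The authors dropped reads of low alignment quality, and the part of this filter in the low counts of these tandem genes was not tested.

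Of the 20 regions in the gene span, 2 were in all 7 lists, 15 in a hypoxia list and not in normoxia, and 3 in normoxia and missing in some hypoxia list. The flanks were unlike the span: of their 11 regions 9 were in all 7 lists, and each list held between 9 and 11 of them. Over the whole window 11 of 31 regions (35.5%) were in all 7 lists, close to the 33.2% of all regions in the genome. There were 16 (51.6%, interval 33.1% to 69.8%) in a hypoxia list and not in normoxia, against 46.8% of all regions, so the window as a whole stood near the background. Those in normoxia and missing later were 4 (12.9%), against 20% of all regions. Each share counts regions, and a region could enter the count only by being called in some list.

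Depth and background differed between the lists. For a region absent from a list, the reads to be expected were taken from the lists that called it, scaled by the median summit reads over regions open in all lists. For the 15 regions of the gene span absent in normoxia the expected reads were 5.28 to 16.3, and all 15 reached the 5 reads at which a peak was called there at genome background. For the 5 Pcdhb promoters they were 6.50 to 7.90 reads, close to that limit. At 6 h only 4 of 18 absent regions reached the 11 reads needed, so an absence at 6 h was mostly not detectable at this depth and background. At 12 h and 24 h all absent regions reached the limit (11 of 11 and 6 of 6), and at 36, 48 and 72 h 13 of 15, 9 of 10 and 9 of 13 did. Each limit is the one at genome background. The weak regions further into the long exon of Pcdhgc5-208 had local backgrounds of 7.80 to 9.62 reads where called. The limits may therefore be too low for these regions, to which the 16.3 expected reads in normoxia belong. The expected reads come only from lists in which the region was called, which raises them, and the part of background and depth in the absent calls was not tested.

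The sites between and beyond the families were the distal ones. Between the end of Pcdha and Pcdhb1, a region 27832 bp before the Pcdhb1 start (chr18:37396276-37396820) was called at 12 h (3.29, 10 reads), 24 h (6.32, 17 reads), 48 h (4.83, 16 reads) and 72 h (4.83, 16 reads) and not in normoxia, at 6 h or at 36 h. Directly after the last Pcdha exon, a region at chr18:37348486-37349058 was called at 24 h (4.57, 12 reads) and in normoxia (5.71, 10 reads) only. Another distal region, before the first Pcdhg start, was called in normoxia alone with 5 reads (3.12).

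Downstream of Pcdhg peaks were called in all lists. The 8 distal regions called in all 7 lists all lay in the body of Diap1, which encodes a formin that nucleates actin filaments and is the neighbouring gene. In neurons the distal enhancers of the cluster include sites in this direction, and the coordinates of those sites were not used here. The 5 with the highest mean fold enrichment averaged 9.14, 8.84, 8.15, 6.99 and 6.76 over the 7 lists. The first of them (chr18:38008980-38009815, 29672 bp past the nearest Pcdhg start) had 8.43 in normoxia and 8.31, 10.49, 9.18, 8.38, 10.53 and 8.64 at 6 to 72 h. The second (chr18:38087414-38087942) had 7.70 to 10.06 in hypoxia, against 8.40 in normoxia. The third (chr18:38043107-38043553) had 6.81 to 9.19 in hypoxia, against 8.77 in normoxia. The fourth (chr18:38077751-38078275) had 4.94 to 9.58 in hypoxia, against 6.75 in normoxia. The fifth (chr18:38039676-38040244) had 5.68 to 7.98 in hypoxia, against 7.12 in normoxia. At each of these 5 the hypoxia lists lay on both sides of normoxia.

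Between Pcdhb and Pcdhg, the promoter of Taf7, which encodes a subunit of the general transcription factor TFIID, was the other site of the gene span called in all lists. It had the highest fold enrichment of the window, 11.61 in normoxia and 11.52, 15.19, 14.77, 14.51, 12.86 and 11.94 at 6 to 72 h. Slc25a2, a mitochondrial carrier gene in the same interval, had no promoter peak.

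To compare levels between lists, the log2 ratio to normoxia of each region open in all lists was set relative to the median ratio of all 36113 such regions, which was −0.41, 0.07, 0.04, −0.13, −0.02 and −0.23 from the shortest to the longest hypoxia. The median of the 11 regions of the window on this scale was 0.24, 0.09, 0.08, 0.11, 0.05 and 0.08 in the same order, with an SD among regions of 0.22 to 0.38. Computed from summit reads in place of fold enrichment, the medians were 0.05, −0.06, 0.11, 0.23, −0.05 and 0.22, so their size and at 12 h and 48 h their sign depended on the measure. The middle 50% of all regions reached from about −0.26 to 0.25. The Pcdhgc5-208 start stood at 0.24, −0.15, −0.01, 0.23, −0.07 and 0.01, within the middle 50% of its list at 12, 24, 48 and 72 h and just above it at 6 h and 36 h.

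On this relative scale 1 region of the 11 was lower by 1.5-fold or more in some list. It lay in Diap1, 32445 bp past the nearest Pcdhg start (chr18:38011753-38012215), and had a fold enrichment of 5.59 in normoxia and 3.55, 3.12, 3.17, 5.51, 3.0 and 4.35 at 6 to 72 h. Its relative log2 ratio was −0.91 at 12 h, −0.86 at 24 h and −0.88 at 48 h. Lower by that much in these 3 lists were 1 of 11 regions of the window (9.09%), against 2.03%, 4.07% and 3.61% of all always-open regions. At 6, 36 and 72 h none of the 11 was, against 7.82%, 5.83% and 7.51% of all. The summit reads of this Diap1 region were 20 to 36 in the hypoxia lists, against 20 in normoxia, and were not scaled between lists. At 12, 24 and 48 h they were 27, 20 and 25. Over all always-open regions the median log2 change in summit reads was 0.93, 0.57 and 0.79 at those times. The local background of the region was 5.62 to 7.98 reads in hypoxia, against 2.76 in normoxia. Whether it was lower by 1.5-fold on scaled reads was not tested. No region of the 11 was 1.5-fold or more higher in any list, against 4.95%, 7.94%, 6.74%, 5.65%, 7.23% and 7.43% of all, shortest time first.

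**Figure D4:**
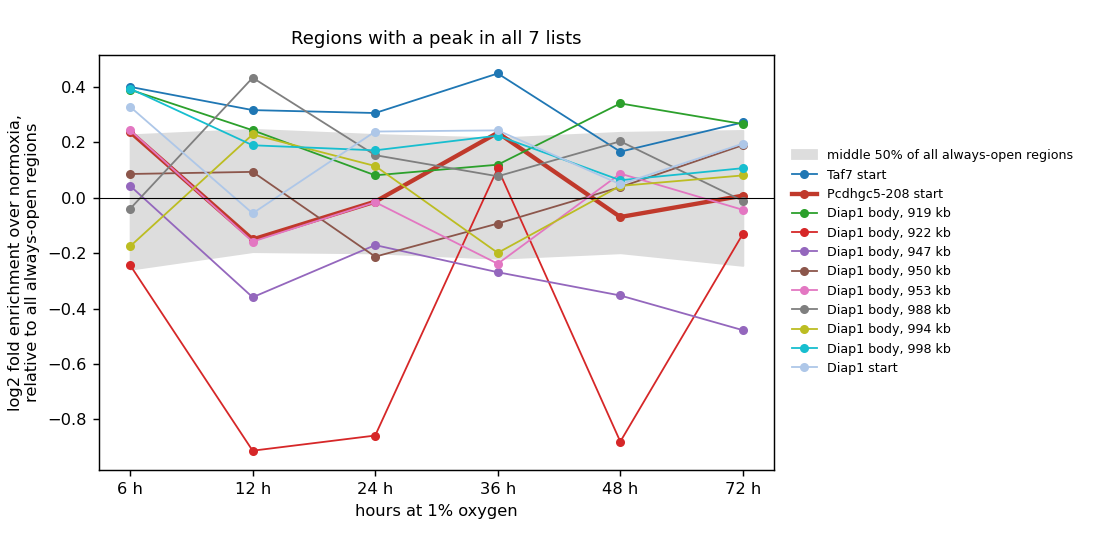
Log2 fold enrichment over normoxia of the 11 window regions called in all 7 lists, relative to the median of all 36113 such regions, by hours at 1% oxygen; the grey band is the middle 50% of all such regions. The Pcdhgc5-208 start (thick red line) ran between −0.15 and 0.24, and the Diap1 region at 922 kb stood lowest at 12, 24 and 48 h.

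The base composition of the starts, which the choice of genes did not use, was measured from 250 bp before to 50 bp after each start. The 46 member starts had a median GC content of 41.7%, against 55.3% over all promoters, 61% over promoters with a peak in all 7 lists and 48.7% over promoters with none. Their median ratio of observed to expected CpG was 0.455, against 0.780 in promoters with a peak in all 7 lists and 0.239 in promoters with no peak. The members were therefore poorer in GC than either of these groups but intermediate in CpG. By family, the median GC content was 43.3% at Pcdha, 40.0% at Pcdhb and 47.0% at Pcdhg starts, and the CpG ratio 0.660, 0.426 and 0.404.

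Pcdhgc5-208 had a GC content of 63.0% and a CpG ratio of 0.875. Starts without a peak reached similar CpG ratios at a lower GC content, such as Pcdha11-207 with 0.927, Pcdhgc5-204 with 0.870 and Pcdhb5 with 0.851. The starts Pcdha11-201 and Pcdha11-202, the last of the Pcdha family, were as rich in GC, at 65.7% and 72.3%, with CpG ratios of 0.651 and 0.766, and had no peak in any list. The Pcdhb starts with a peak in hypoxia had 40.0% to 45.3% GC and were inside the range of the other Pcdhb starts. The 7 starts with a peak had a median GC content of 42.0% and a CpG ratio of 0.529, and the 39 starts with no peak 41.3% and 0.445.

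**Figure D5:**
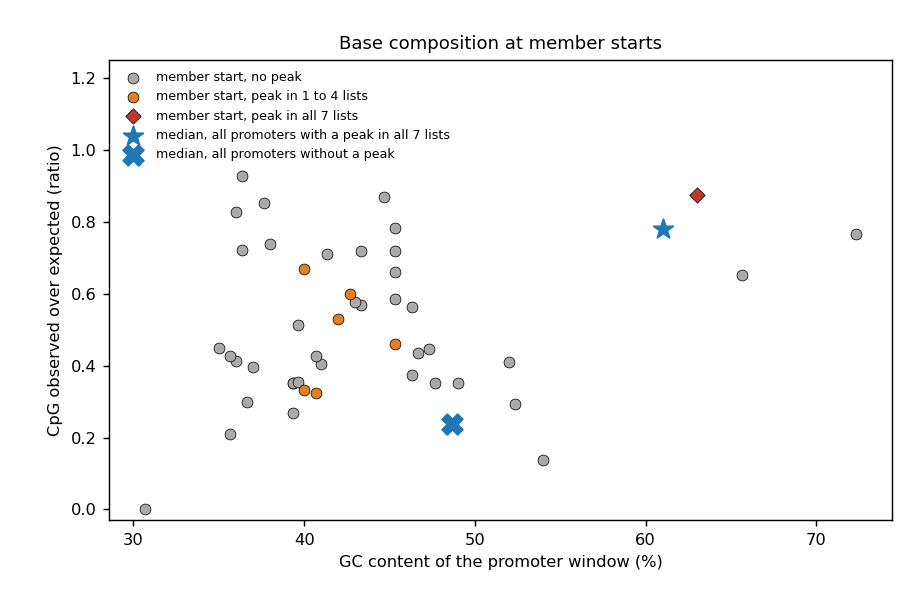
GC content (%) and ratio of observed to expected CpG of the promoter window at each of the 46 annotated member starts, coloured by the number of lists with a peak, with the medians of all promoters with a peak in all 7 lists (star) and with none (cross). Pcdhgc5-208 (diamond) lies near the star and 2 Pcdha11 starts without a peak lie at a higher GC content.

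The letters CGCT, searched on both strands, were present at 44 of the 46 member starts (95.7%), against 67.8% of all promoters and 88.4% of promoters with a peak in all 7 lists. The Pcdhgc5-208 window held them 9 times. The CTCF consensus, searched on both strands with no mismatch, was at 0 of 46 member starts and 0.519% of all promoters. With so low a share over all promoters, a count of 0 among 46 starts cannot set the members apart. Within 100 bp of the strongest summit, CGCT was found in 13 of the 19 regions of the gene span that had no start of another gene nearby (68.4%), against 33.9% of all regions. Of these 19, 10 lay within 1 kb of the start of a reading frame. The median CpG ratio at the summits was 0.432 in the 19 and 0.199 over all regions. The part of site class and CpG in the CGCT share was not tested. The CTCF consensus was found in 3 of the 19 (15.8%), against 2.86% of all regions. These 3 were the regions in frame 7, in frame 8 and in the exon of Pcdhb3, and all 3 held CGCT as well. A match describes the letters in these windows only.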

How the data were processed

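Per the methods of the paper and the notes of the submitters on processing, the authors mapped reads to mm9 (Bowtie2 2.1.0), took out duplicates (Picard 1.79), pooled both samples of a group and ran MACS2 (version not given). Before that they dropped reads that were not properly paired or were of low alignment quality. Column 7 as deposited is fold enrichment, the ratio of reads at a summit to its surroundings. The significance columns of the authors are −log10 of the p-value and of the q-value, and nothing scales 1 list to another. Since the lists are pooled, depth per sample is unknown.

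Sequence was that of NCBIM37, which is mm9, and genes were those of its GENCODE annotation. Summit reads and background were solved from the deposited fold and −log10 p for 100% of summits (tolerance 0.001), and simulated summits were used as a check. Peaks that overlapped or touched, in whichever list, formed 1 region, and sharing 1 base was overlap. Intervals are exact at 95% and cover counting error only. Fully described were all members with a peak and the 5 distal regions in most lists with the highest mean fold enrichment. The members, gene lists and measures were chosen with earlier results of these data known. Alternatives were stricter thresholds, the 20000 strongest peaks, other promoter and merging distances, other overlap rules and leaving out hypoxia lists. Chromosome 18 sequence is not printed. Software was numpy 2.4.6, pandas 2.3.3 and scipy 1.17.1 under Python 3.11.15, with matplotlib 3.10.9 for plots.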

Additional observations from a re-analysis of the deposited data

How the results depend on the processing

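No paired analysis was possible because each list pools both samples of a group, and for the same reason no sample could be left out. With peaks of −log10 q of 5 or more, members with a promoter peak in any list numbered 3 (6 in the report), members with one in hypoxia and none in normoxia 2 (5), window regions in hypoxia and not in normoxia 9 (16) and window regions in normoxia and missing later 2 (4). With the 20000 strongest peaks of each list these counts were 1, 0, 2 and 2, with 8 window regions in any list (31) and 4 in all 7 (11). Reading frames in place of genes, chosen after seeing the data, gave 10 with a peak in any list and 9 in hypoxia and not in normoxia. With only the 5-prime-most start of each gene, 0 members had a peak in all 7 lists, since Pcdhgc5-208 is an inner start. Leaving out the 24 h list, also chosen after seeing the data, removed Pcdhb14 and left 4 genes with a peak in hypoxia and none in normoxia. Of the remaining values, 45 gene counts and 38 region counts stayed within 1.5 times the reported one. The median relative signal of the always-open regions depended on the measure: with summit reads it was 0.05, −0.06, 0.11, 0.23, −0.05 and 0.22, shortest time first, where fold enrichment gave 0.24, 0.09, 0.08, 0.11, 0.05 and 0.08. Where no cause is named, it was not tested. Weak peaks stand close to the fewest reads called, 11 at 6 h and 5 in normoxia.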

Other observations

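Other genes around clustered protocadherin biology were counted in the same way. Of 16 regulators of the cluster, such as Ctcf, the cohesin subunits Rad21 and Smc3, and the chromatin protein Smchd1, 15 had a promoter peak in all 7 lists. The exception was Dnmt3b, a de novo DNA methyltransferase, which lacked a peak at 6 h and had a fold enrichment of 4.66 to 8.22 in the other hypoxia lists, against 4.67 in normoxia. All 12 signalling partners, among them the kinases Ptk2 and Fyn and the WAVE complex members Wasf1 and Cyfip1, had a peak in all 7 lists. Over all genes this share was 45.9%. Whether the regulators and partners differ from other genes with widely open promoters was not tested.

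The non-clustered protocadherins lie outside the window. Of 12, 6 had a promoter peak in any list, against 56.7% of all genes, and 2, Pcdh1 and Pcdh18, in all 7, against 45.9%. Pcdh1 and Pcdh12 are also on chromosome 18. Pcdh17 had one in each of the 6 hypoxia lists and none in normoxia, with fold enrichments of 6.11, 6.70, 5.62, 7.78, 6.82 and 6.47, shortest time first. Pcdh7 had one at 48 h alone (2.76). Pcdh9 had one at 24 to 72 h (4.62 to 6.68) and in normoxia (4.67) and none at 6 and 12 h. Pcdh15 had one in normoxia alone (4.08).

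Among markers of other cell types, 2 of 6 leukocyte markers had a promoter peak in any list, Sfpi1 at 48 h and Lyz2 at 36 h, and none had one in all 7. Of 6 fibroblast and endothelial markers, Pdgfra had one in all 7 lists and Col1a1 and Pecam1 in 3 lists each. Cldn7 was the epithelial marker without a peak.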
